A study of Disanthus cercidifolius subsp. longipes with 9 samples.

Results

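The first steps of the phenylpropanoid pathway were followed in leaves of Disanthus cercidifolius var. longipes, a deciduous shrub, through 19 transcript clusters annotated as phenylalanine ammonia-lyase (PAL), cinnamate 4-hydroxylase (C4H) or 4-coumarate:CoA ligase (4CL). They are 19 of the 24385 clusters in the deposited table, which holds only clusters that the authors called in at least 1 stage comparison. A cluster was taken when its Swiss-Prot match carried the name of one of these enzymes, which found 18, and Cluster-39972.0 was added because its match spells the ligase name differently. The 19 comprise 10 PAL, 4 C4H, 3 4CL and 2 4CL-like clusters with 12 different cluster numbers, and all 19 carry the KEGG ortholog of their enzyme. The expected protein domain was annotated in 7 of 10 PAL, 3 of 4 C4H, 3 of 3 4CL and 2 of 2 4CL-like clusters.

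RNA of leaves was sequenced at the stages F1 (young leaves, unfolded but not fully mature inside), F2 (near-mature leaves) and F3 (fully mature leaves), with 3 libraries per stage. The labels date the stages to 20, 23 and 26 July, whereas the study's methods place them about a month apart from April to June, so the time between stages is uncertain. The plants were 5-year-old seedlings raised from stem cuttings in a nursery, and leaves came from 3 trees with 5 branches each. Which tree gave which library is not stated, so p-values measure the spread between these libraries.

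PAL removes ammonia from phenylalanine to give cinnamic acid, C4H, a cytochrome P450 of the family CYP73A, hydroxylates it, and 4CL activates the resulting 4-coumaric acid as its CoA ester. That ester is the branch point to lignin on one side and to flavonoids and anthocyanins on the other. In plants these enzymes are often encoded by small families whose members differ in organ, age and response to light or wounding.

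Between 8657054 and 14284676 counts per library fell on the table, and counts and FPKM together imply 16925612 to 25373016 fragments per library. The table held 55.4% to 56.6% of those fragments at F1 and F2 and 46.3% to 46.9% at F3. Markers of mesophyll, the photosynthetic leaf tissue, matched 47 clusters and summed to 70972 to 74877 FPKM at F1, 102990 to 104480 at F2 and 34157 to 35929 at F3. The chlorophyll a-b binding proteins averaged 37980, 72634 and 16083 FPKM in that order and the Rubisco small subunit 34858, 31109 and 19149. FPKM is fragments scaled to cluster length and library size, and levels of different clusters are compared only on this scale. In RNA of whole leaves, fewer cells of a type and less RNA per cell cannot be told apart.

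The 3 enzymes differed in how their summed levels moved from young to mature leaves. Summed FPKM of the 10 PAL clusters was 127 ± 2.40 (mean ± SD, n = 3) at F1, 61.2 ± 5.61 at F2 and 85.0 ± 3.33 at F3, and no library of one stage reached into another. Summed C4H was 50.5 ± 3.16, 64.1 ± 12.3 and 87.6 ± 20.1 FPKM in the same order. F1 lay below both later stages, and F2 and F3 overlapped. Summed 4CL with the 4CL-like clusters was 115 ± 11.5, 88.2 ± 1.02 and 42.1 ± 1.30 FPKM, with no overlap between stages. From F1 to F3 PAL and 4CL thus ended at 0.669 and 0.366 times and C4H at 1.74 times the starting sum. These sums are descriptions and were not tested.

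**Figure D1:**
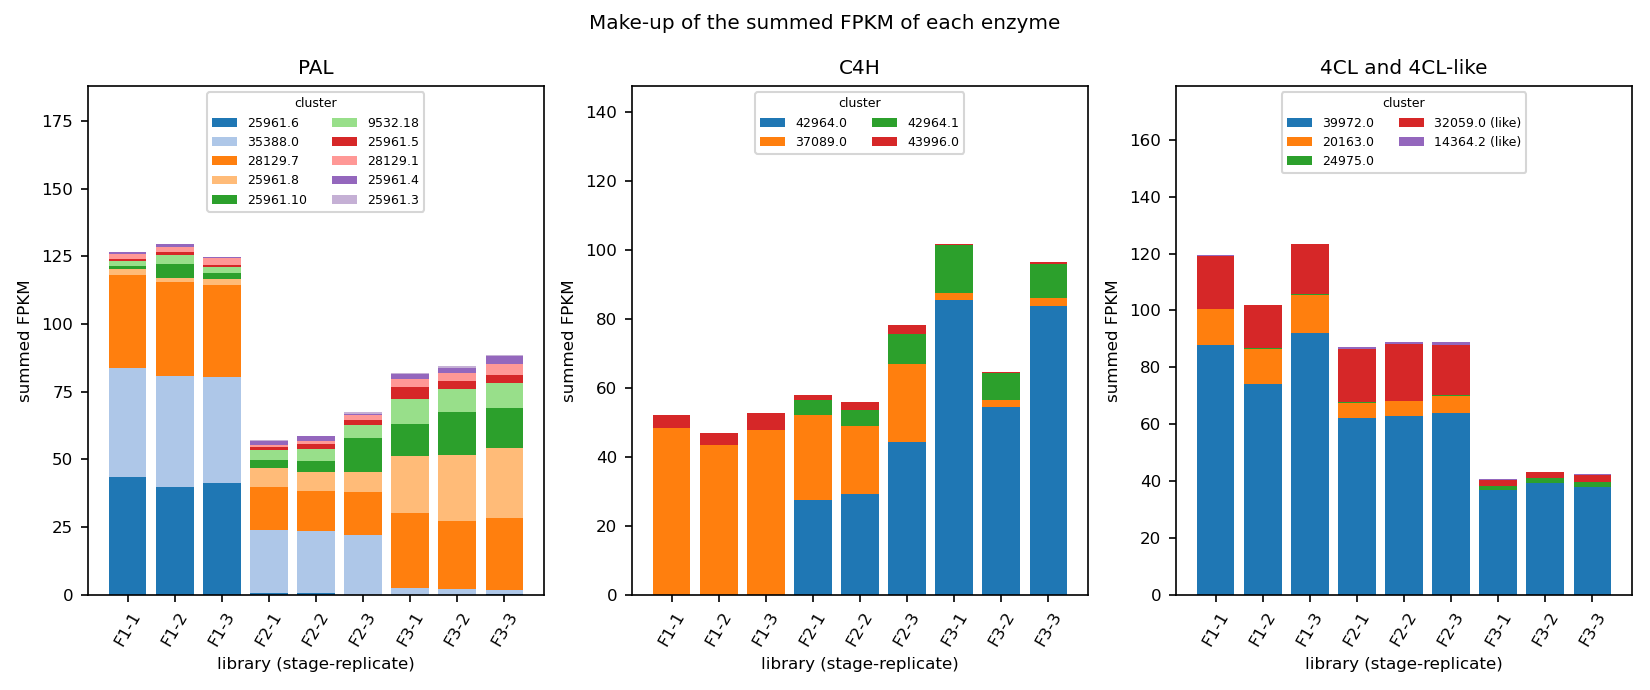
Stacked FPKM of the PAL, C4H and 4CL clusters in each of the 9 libraries, 1 bar per library and 1 colour per cluster, on a linear axis from 0. The C4H bars consist almost wholly of Cluster-37089.0 at F1 (92.0% of the sum) and of the pair Cluster-42964.0 and Cluster-42964.1 at F3 (97.1%).

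The FPKM annotated as C4H passed from one set of clusters to another. Cluster-37089.0 had 48.28, 43.28 and 47.7 FPKM at F1, 24.65, 19.79 and 22.64 at F2 and 2.09, 1.88 and 2.14 at F3. The stages did not overlap, and each was lower than the one before it. It fell in every comparison, with log2 changes of -1.02 ± 0.09 (SE) from F1 to F2, -3.83 ± 0.10 from F2 to F3 and -4.86 ± 0.10 from F1 to F3 (edgeR's quasi-likelihood test, adjusted p = 1.67e-05, 5.93e-09 and 1.25e-09). Without F2 replicate 2 the first of these changes was -0.97, just under the 2-fold threshold used for a call, and it was also -0.97 in the fit with clusters of one number summed.

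Cluster-42964.0, also C4H, ran the other way. Its counts at F1 were 0, 1 and 0, while it had 27.52, 29.21 and 44.16 FPKM at F2 and 85.42, 54.48 and 83.8 FPKM at F3. It was thus at or near 0 in every young library and the most abundant of the 19 clusters at F3. Against the single count at F1, the scaled count was 12249 times higher at F2 (95% counting interval 2198 to 483850) and 24852 times higher at F3 (4460 to 981650), with edgeR adjusted p of 1.23e-07 and 1.62e-08. From F2 to F3 the log2 change was 0.98 ± 0.20 (edgeR adjusted p = 0.00256), which is short of a 2-fold rise. It lay past 2-fold, between 1.13 and 1.16, under DESeq2, RLE scaling, library sizes implied by FPKM, limma with either pseudocount and a fit of the 2 stages alone, was 1.22 without F2 replicate 3 and was 1.14 without F3 replicate 2.

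Cluster-42964.1 bears the same cluster number and the same match. It had 0 counts in all 3 F1 libraries, 4.32, 4.51 and 8.95 FPKM at F2 and 14.05, 7.84 and 10.05 FPKM at F3. F2 and F3 overlapped, and F2 replicate 3 was the high F2 library in both clusters of the pair. Against a floor of 3 counts per library it was at least 250-fold higher at F2 and at least 399-fold higher at F3 than at F1 (edgeR adjusted p = 2.81e-05 and 7.65e-06), while the log2 change from F2 to F3 was 0.68 (edgeR adjusted p = 0.0934) and reached 1.10, past the threshold, without F2 replicate 3. Together the pair made up 0.0135% of C4H FPKM at F1, 61.0% ± 6.57 (SD, n = 3) at F2 and 97.1% ± 0.639 at F3. The share of Cluster-37089.0 went from 92.0% ± 1.15 through 35.6% ± 6.76 to 2.39% ± 0.455.

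The lengths of these clusters bear on their levels. Cluster-42964.0 and Cluster-42964.1 are 5223 and 5291 bases long, against 2304 for Cluster-37089.0 and 1042 for Cluster-43996.0. FPKM divides by a length drawn from this one, so a change in make-up moves the C4H sum by an amount that depends on it. Fitted over abundant clusters, counts and FPKM together imply the deposited length less 176 to 191 bases, depending on the library. Single clusters can depart from that fit. No cluster sequence was examined, so whether all reads of the 2 long clusters come from C4H was not tested. Counts scaled between libraries but not divided by length gave a C4H sum 2.87 times higher at F2 and 4.58 times higher at F3 than at F1, against 1.27 and 1.74 on the FPKM scale. The direction was the same on both scales. The C4H cluster with the lowest mean over all 9 libraries, Cluster-43996.0, had 3.56 to 4.9 FPKM at F1, 1.55 to 2.45 at F2 and 0.21 to 0.53 at F3, and it fell from F2 to F3 and from F1 to F3.

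**Figure D2:**
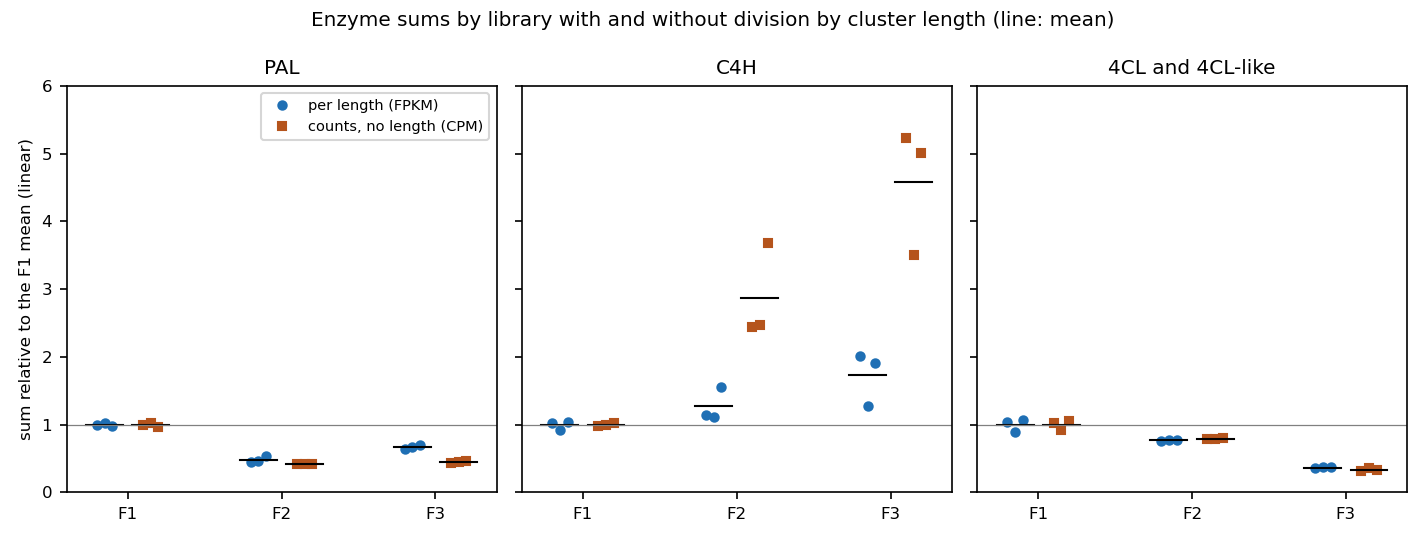
Summed level of each enzyme per library relative to its F1 mean, as FPKM (circles) and as scaled counts without division by length (squares); lines are means of 3 libraries and the axis is linear. At F3 the C4H sum is 1.74 times the F1 mean on the FPKM scale and 4.58 times in counts, while the PAL sum is 0.669 and 0.451 times and the 4CL sum 0.366 and 0.337 times.

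At F1, PAL FPKM came mainly from 3 clusters between 33.74 and 43.5 FPKM, and these parted later. Cluster-25961.6 had 43.5, 39.82 and 41.28 FPKM at F1, 0.74, 0.67 and 0 at F2 and 0, 0 and 0.04 at F3. The young libraries stood far above all others, and F2 and F3 overlapped at 0. It fell by 6.34 ± 0.54 on the log2 scale from F1 to F2 (edgeR adjusted p = 1.97e-05). From F2 to F3 the call rested on 100 against 2 counts over the 3 libraries of each stage, a ratio of 53.6 (95% counting interval 14.5 to 449), and on log2(FPKM + 1) in limma it fell by 0.49, no longer past 2-fold. From F1 to F3 the count ratio was 4194 (1161 to 34636), with edgeR adjusted p = 2.46e-06.

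Cluster-35388.0, the second PAL cluster of young leaves, had 40.13, 40.86 and 39.27 FPKM at F1, 23.1, 22.97 and 22.12 at F2 and 2.61, 1.92 and 1.52 at F3. Its stages were separate and each lower than the last. The log2 change from F1 to F2 was -0.78 ± 0.13 (edgeR adjusted p = 0.0012), under the fold threshold, and it fell by 3.65 ± 0.15 from F2 to F3 (edgeR adjusted p = 8.12e-08). Cluster-28129.7 had 34.43, 34.99 and 33.74 FPKM at F1, 15.97, 14.79 and 15.89 at F2 and 27.67, 25.1 and 26.83 at F3. All its F2 libraries were below all F3 libraries, and these were below all F1 libraries. It fell by 1.10 ± 0.06 from F1 to F2 (edgeR adjusted p = 1.22e-06). The changes of 0.60 ± 0.06 from F2 to F3 and -0.50 ± 0.06 from F1 to F3 were smaller than 2-fold, with edgeR adjusted p of 2.55e-05 and 6.99e-05.

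Cluster-25961.8 was the PAL cluster that rose in every comparison. It had 2.28, 1.49 and 2.18 FPKM at F1, 6.96, 7.05 and 7.15 at F2 and 21.02, 24.54 and 25.77 at F3, with no overlap. The log2 changes were 1.92 ± 0.14, 1.59 ± 0.13 and 3.51 ± 0.14 from F1 to F2, F2 to F3 and F1 to F3 (edgeR adjusted p = 6.8e-06, 6.55e-06 and 5.19e-08). It shares its cluster number with Cluster-25961.6, which fell in all 3. Whether reads were divided between clusters of one number was not tested, and the values of each are uncertain to that extent. The sum over the 6 PAL clusters of this number was 47.8 ± 0.908 FPKM at F1, 17.4 ± 5.20 at F2 and 44.2 ± 4.04 at F3. Of the 44.2 FPKM at F3, 14.1 came from the 341-base Cluster-25961.10, and without it the sum was 45.0 ± 2.03, 10.9 ± 0.633 and 30.1 ± 2.26 FPKM. Summed to 1 feature, the number fell by 2.17 from F1 to F2, rose by 1.22 from F2 to F3 and had a log2 change of -0.95 from F1 to F3 (edgeR adjusted p = 6.59e-11, 5.18e-09 and 3.58e-08).

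Cluster-25961.10, a short PAL cluster of 341 bases, had 0.97, 4.94 and 2.44 FPKM at F1, 2.79, 3.72 and 12.86 at F2 and 11.84, 15.85 and 14.72 at F3. These values rest on 2 to 43 counts per library. F2 overlapped F1, and through replicate 3 also F3, whereas F1 and F3 were separate. It rose by 2.20 ± 0.71 on the log2 scale from F1 to F3 (edgeR adjusted p = 0.0191). The adjusted p was 0.0559, 0.0583 and 0.0501 without F1 replicate 1, F1 replicate 3 and F3 replicate 2.

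The other 5 PAL clusters stayed under 10 FPKM in every stage and are named only to account for each member. Cluster-9532.18, Cluster-25961.5 and Cluster-25961.3 rose from F1 to F2 and from F1 to F3, Cluster-25961.4 rose from F1 to F3, and Cluster-28129.1 rose from F2 to F3. The highest of them, Cluster-9532.18, had 2 to 3.38 FPKM at F1 and 8.5 to 9.26 at F3. For Cluster-25961.3, which had 1 count in all at F1, the count ratio of F3 to F1 was 96.4 (95% counting interval 16.9 to 3843). By share, Cluster-25961.6 and Cluster-35388.0 made up 32.7% and 31.6% of PAL FPKM at F1 and 0.0151% and 2.39% at F3. Cluster-25961.8 went from 1.57% to 27.9%, Cluster-28129.7 from 27.1% to 31.2% and Cluster-25961.10 from 2.18% to 16.6%. These shares too depend on length. Of PAL counts, which are not divided by it, Cluster-25961.10 held 0.997% at F3, Cluster-25961.8 34.7% and Cluster-28129.7 43.6%, the last up from 27.7% at F1.

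**Figure D3:**
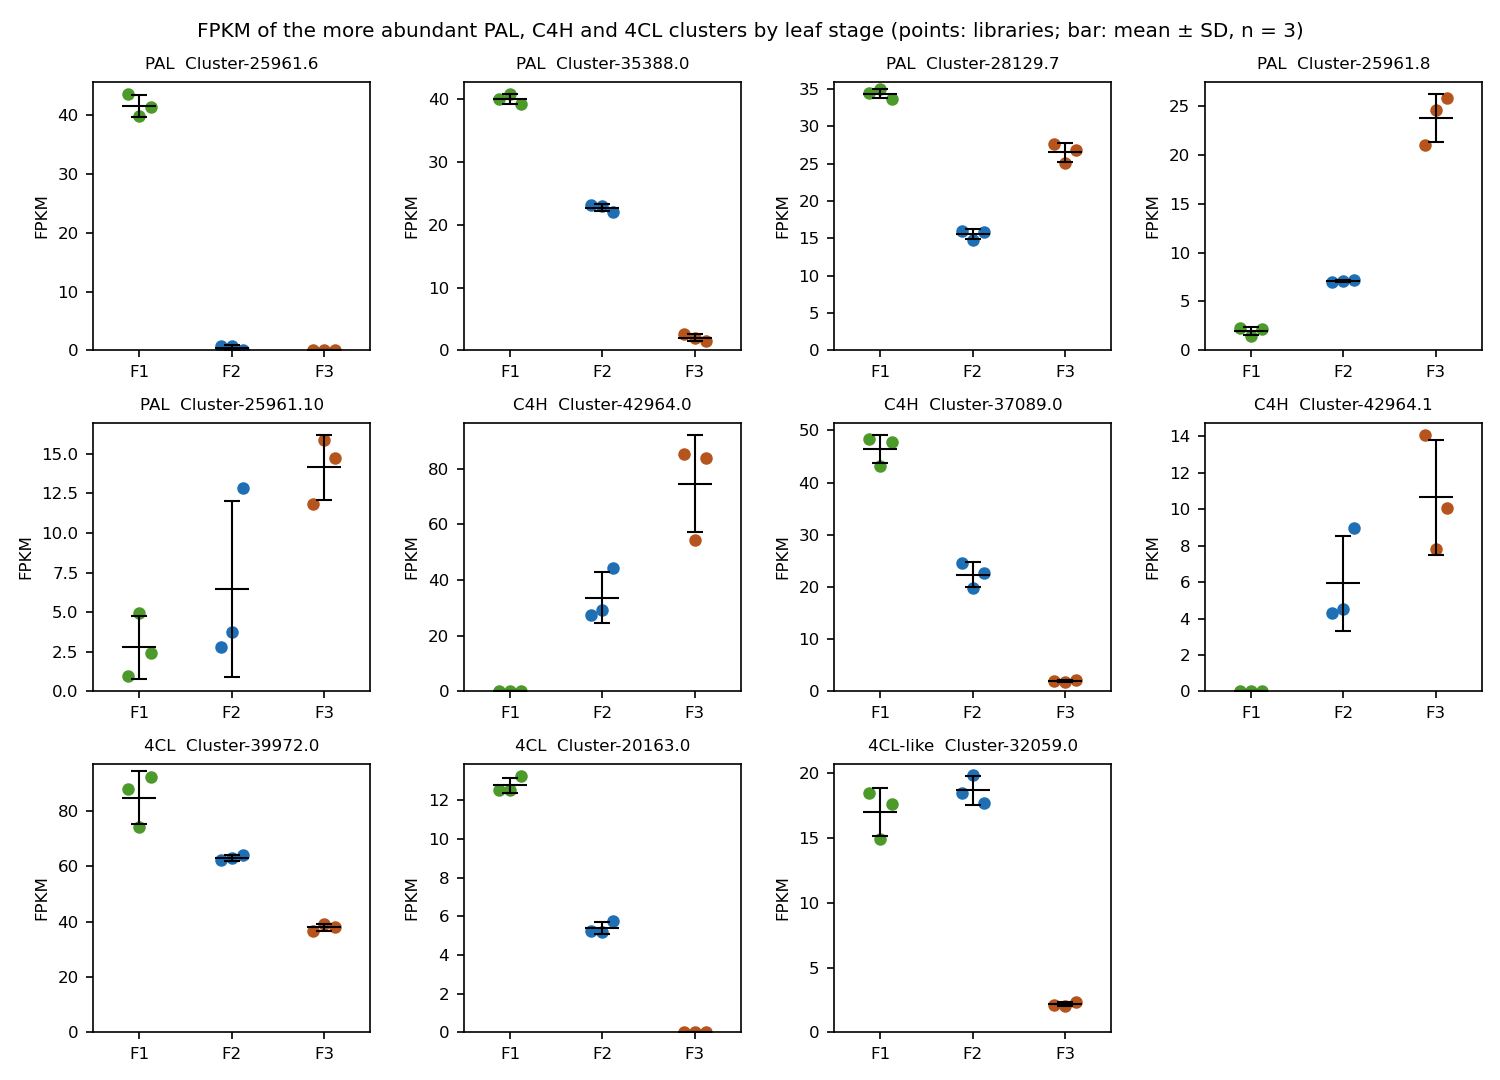
FPKM of the 11 clusters that averaged at least 10 FPKM in a stage, 1 panel each with its own linear axis from 0; points are libraries and the bar is the mean ± SD (n = 3). Cluster-25961.6, Cluster-35388.0, Cluster-37089.0, Cluster-20163.0 and Cluster-32059.0 sit low at F3, between 0 and 2.61 FPKM. Cluster-42964.0 and Cluster-42964.1 sit at 0 to 0.01 FPKM at F1.

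4CL was carried by 1 cluster throughout. Cluster-39972.0 had 87.84, 74.04 and 92.22 FPKM at F1, 62.07, 62.9 and 63.98 at F2 and 36.72, 39.26 and 38.01 at F3. The stages did not overlap, and the libraries of F2 and of F3 lay close together. It fell by 1.27 ± 0.07 on the log2 scale from F1 to F3 (edgeR adjusted p = 5.22e-07), while the steps of -0.38 ± 0.07 and -0.89 ± 0.07 (edgeR adjusted p = 0.00225 and 6.85e-06) were each smaller than 2-fold. Its share of the 4CL and 4CL-like FPKM was 73.6%, 71.4% and 90.3% at F1, F2 and F3.

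Cluster-20163.0, a second 4CL, had 12.54, 12.54 and 13.25 FPKM at F1, 5.25, 5.2 and 5.77 at F2 and 0, 0 and 0.02 at F3. It stepped down without overlap to a single count over the 3 mature libraries. It fell by 1.20 ± 0.17 from F1 to F2 (edgeR adjusted p = 0.000465), and the count ratio was 841 for F2 over F3 (95% counting interval 151 to 33273) and 1947 for F1 over F3 (349 to 76938), with edgeR adjusted p of 4.45e-08 and 1.34e-08. Cluster-24975.0, named to account for the third 4CL, rose from F2 to F3 and from F1 to F3 but stayed between 0.09 and 1.87 FPKM, and its closest NR match is a fatty acid AMP ligase. That match differs in substrate from the Swiss-Prot name it carries.

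The 4CL-like proteins are relatives of 4CL, and in Arabidopsis some of them activate acids other than 4-coumaric acid. Cluster-32059.0, matched to 4CL-like 6, had 18.43, 14.94 and 17.6 FPKM at F1, 18.43, 19.83 and 17.68 at F2 and 2.13, 2.02 and 2.35 at F3. F1 and F2 overlapped and both were far above F3. The log2 change was 0.21 ± 0.08 from F1 to F2 (edgeR adjusted p = 0.06), and it fell by 3.24 ± 0.09 from F2 to F3 (edgeR adjusted p = 8.65e-09). The other, Cluster-14364.2, did not exceed 1 FPKM in any library and fell from F2 to F3 (edgeR adjusted p = 0.0452). Without both, summed 4CL was 97.7, 68.7 and 39.6 FPKM.

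Over all 19, 10 clusters were called from F1 to F2, where 6 rose and 4 fell, against 40.8% of all clusters called, 22% rising and 18.8% falling. A call needed an adjusted p under 0.05 and a change of 2-fold or more. All clusters here are those deposited, which the authors had already called, so these shares are not those of all leaf transcripts. From F2 to F3, 10 were called (3 rose, 7 fell), against 65.3% of all clusters, 29.5% rising and 35.8% falling. From F1 to F3, 16 were called (9 rose, 7 fell), against 69.7%, 35% and 34.7%. The share called was above the background between F1 and F2 and from F1 to F3 and below it between F2 and F3, with only 19 clusters to count. The median log2 change of the 19 was 0.60, 0.52 and 0.42, against 0.17, -0.37 and 0.00 over all clusters. Setting Cluster-42964.1 at its lower bound against F1 could not move these medians, since it stays above them.

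The scaling of the libraries entered these counts. RLE scaling moved the median over all clusters from 0.17 to 0.00 between F1 and F2 and from -0.37 to -0.19 between F2 and F3. Under it 5 of the 19 rose and 6 fell from F1 to F2, and 5 rose and 6 fell from F2 to F3. From F1 to F3 the split stayed at 9 and 7. By enzyme, from F1 to F3 6 PAL clusters rose and 2 fell, 2 C4H rose and 2 fell, 1 4CL rose and 2 fell, and 1 4CL-like fell. Of the 6 PAL clusters that rose, 5 share the cluster number of Cluster-25961.8, which when summed had a log2 change of -0.95. With clusters of one number summed to 12 features, 2 rose and 6 fell from F1 to F3, and neither that rose was PAL. The numbers 9532 and 28129 sum 73 and 4 clusters, which include clusters outside the 19. The sum of number 9532 had a log2 change of -0.83 from F1 to F3, while its PAL cluster, Cluster-9532.18, rose by 2.19. The 4 clusters called in all 3 comparisons were Cluster-25961.6, Cluster-37089.0 and Cluster-20163.0, which fell each time, and Cluster-25961.8, which rose each time. Each of the 19 was called at least once, and the table was itself restricted to called clusters.

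**Figure D4:**
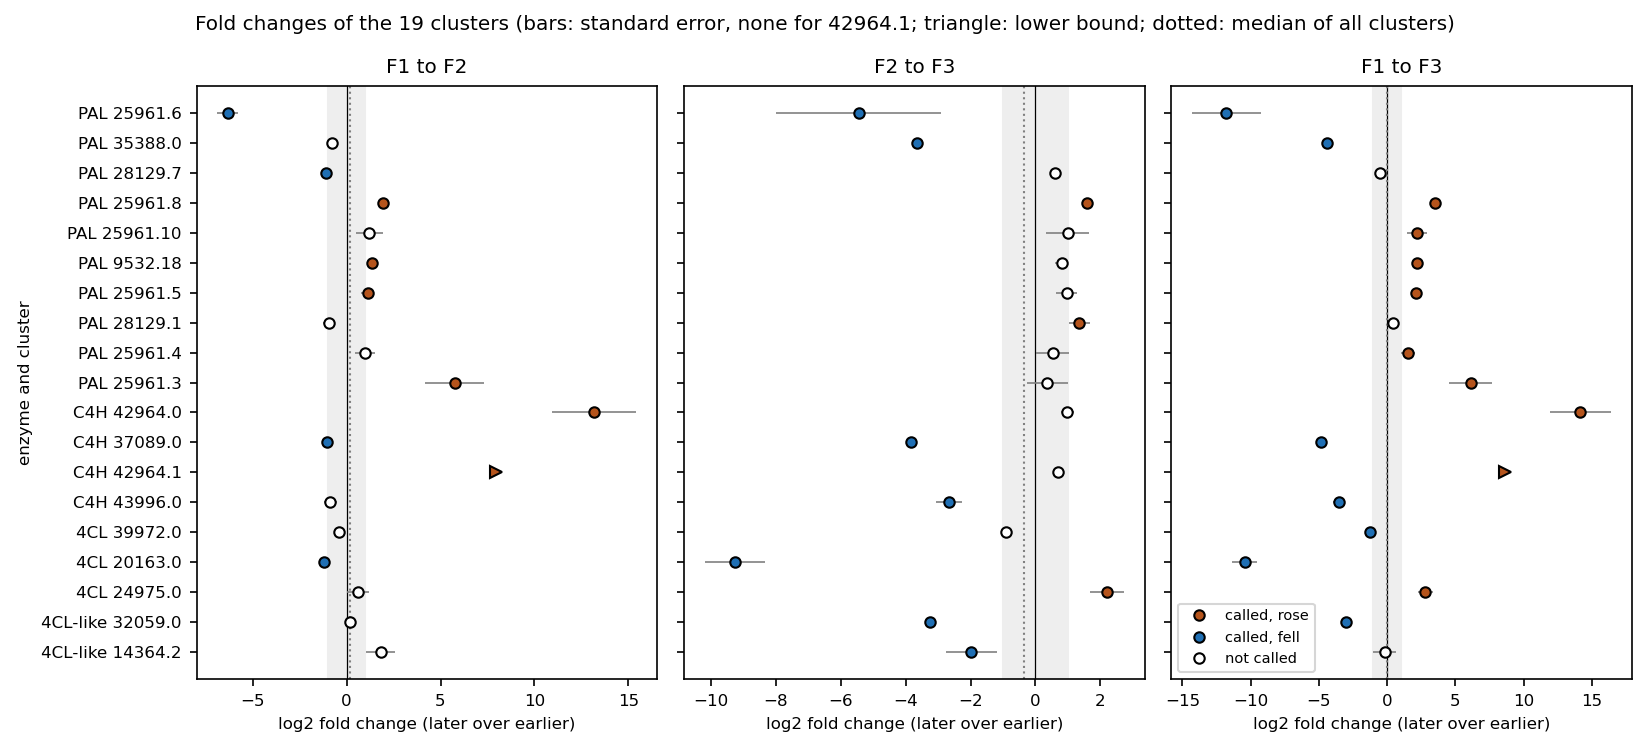
Log2 fold change (later over earlier stage) of the 19 clusters in each comparison, with bars for the standard error; the grey band marks changes under 2-fold, the dotted line the median of all clusters, and triangles the lower bound for Cluster-42964.1. From F1 to F3 9 clusters lie to the right as called and 7 to the left.

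The order of levels turned over between young and mature leaves. At F1 Cluster-39972.0 was highest, followed by Cluster-37089.0, Cluster-25961.6 and Cluster-35388.0, whose ranges met those of their neighbours, then by Cluster-28129.7, Cluster-32059.0 and Cluster-20163.0, each clear of the next. At F2 Cluster-39972.0 (63.0 FPKM) and Cluster-42964.0 (33.6) led, and Cluster-35388.0, Cluster-37089.0 and Cluster-32059.0 followed with overlapping ranges. At F3 Cluster-42964.0 (74.6 ± 17.4) was clear of Cluster-39972.0 (38.0 ± 1.27), and Cluster-28129.7 and Cluster-25961.8 followed with overlapping ranges. The highest stage was F1 for 7 of the 19 (36.8%), F2 for 2 (10.5%) and F3 for 10 (52.6%), against 30.3%, 28.6% and 41.1% of all clusters. The 2 that peaked at F2 were both 4CL-like.

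Several PAL, C4H and 4CL clusters kept step across the 9 libraries. On log2(FPKM + 1), Cluster-37089.0 (C4H) had a Pearson r of 0.998 with Cluster-20163.0 (4CL) and 0.994 with Cluster-35388.0 (PAL), and the last 2 had an r of 0.992 with each other. The young-leaf set thus holds a cluster of each of the 3 enzymes. The rising C4H cluster Cluster-42964.0 had an r of -0.994 with the falling PAL cluster Cluster-25961.6. These are descriptions over 9 libraries in 3 stages, and the 3 libraries of a stage share their stage.

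Clusters outside the enzymes that were most like their most abundant clusters were of mixed kinds. Among 4577 named clusters of at least 10 FPKM in a stage, Cluster-28129.7 (PAL) was closest to 60S ribosomal protein L22-2 (Cluster-34561.1, r = 0.9989), RESPONSE TO LOW SULFUR 3 (Cluster-19893.0, 0.9952) and Histone H2A (Cluster-14795.0, 0.9948), then the late embryogenesis abundant protein ECP63 and Snakin-2. Cluster-42964.0 (C4H) was closest to the AAA-ATPase At2g46620 (Cluster-48541.0, r = 0.9967), the calcium-sensor-linked kinase CIPK11 (Cluster-35820.1, 0.9958) and 2-methylpropanoate-CoA ligase CCL4 (Cluster-26277.0, 0.9954), then ERD6-like 6 and Thioredoxin-like 3-1. Cluster-39972.0 (4CL) was closest to leucine-rich repeat extensin-like protein 4 (Cluster-28243.0, r = 0.9977), Chitinase-like protein 1 (Cluster-48341.0, 0.9954) and the homeobox protein ATHB-6 (Cluster-31958.0, 0.9931), then Glycosyltransferase BC10 and FT-interacting protein 7. An r over 0.95 was reached by 114, 170 and 620 clusters for the PAL, C4H and 4CL cluster, so closeness at this level was common.

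Upstream, 16 clusters matched enzymes that supply phenylalanine. Here 1 went up and 6 went down between F1 and F2, 1 and 8 between F2 and F3, and 2 and 9 between F1 and F3. Over all clusters, 22% rose and 18.8% fell in the first of these comparisons, 29.5% and 35.8% in the second and 35% and 34.7% in the last. DAHP synthase, the first enzyme of the shikimate pathway, was led by Cluster-38323.0 with 372 ± 48.1, 305 ± 2.02 and 8.66 ± 0.116 FPKM at F1, F2 and F3. This cluster fell by 5.30 on the log2 scale from F2 to F3 (edgeR adjusted p = 3.41e-10). Summed over its 2 clusters the enzyme had 533, 362 and 58.3 FPKM, so the other cluster held most of the sum at F3. Arogenate dehydratase makes phenylalanine itself, and Cluster-38476.0 fell by 1.33 from F1 to F3 (edgeR adjusted p = 2.42e-05), from 45.0 to 19.4 FPKM. Among the others, Cluster-51179.0 (dehydroquinate dehydratase/shikimate dehydrogenase) fell from F1 to F2, Cluster-53234.3 (shikimate kinase) fell from F1 to F3 and Cluster-38419.0 (chorismate mutase) fell in all 3 comparisons. No cluster of the table matched EPSP synthase or chorismate synthase.

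C4H receives electrons from NADPH-cytochrome P450 reductase. Both reductase clusters fell from F2 to F3, where 35.8% of all clusters fell. The more abundant one, Cluster-53936.1, had 76.6, 85.9 and 44.6 FPKM at F1, F2 and F3, and it fell by 1.11 from F2 to F3 (edgeR adjusted p = 2.72e-07). Kelch-repeat F-box proteins, which in Arabidopsis mark PAL for breakdown, matched 2 clusters. Of these 1 rose from F1 to F2, 1 fell from F2 to F3 and 1 fell from F1 to F3. The shares over all clusters were 22%, 35.8% and 34.7%, and 2 clusters are too few to set against them. The more abundant one, Cluster-52255.0, was low, from 6.71 FPKM at F1 and 6.21 at F2, and fell from F2 to F3 (edgeR adjusted p = 2.03e-05).

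Downstream, 76 clusters matched enzymes of the lignin branch. The calls were 22 up and 24 down between F1 and F2, 20 up and 32 down between F2 and F3, and 24 up and 37 down between F1 and F3, with median log2 changes of -0.38, -0.77 and -1.14. The medians over all clusters were 0.17, -0.37 and 0.00, and the shares called up and down were 22% and 18.8%, 29.5% and 35.8%, and 35% and 34.7%, so the counts between F2 and F3 lie near the background. The branch held large opposite changes. Caffeoylshikimate esterase, which releases caffeic acid, was led by Cluster-49636.1 at 124, 19.5 and 1.25 FPKM, and caffeoyl-CoA O-methyltransferase by Cluster-38081.0 at 114, 40.9 and 8.50 FPKM. Both fell in all 3 comparisons. Caffeic acid O-methyltransferase was led by Cluster-22823.7 at 7.23, 20.1 and 326 FPKM, and it rose in all 3, by 6.53 on the log2 scale from F1 to F3 (edgeR adjusted p = 2.94e-10).

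The other lignin enzymes also differed among themselves. The hydroxycinnamoyltransferase HCT, which moves the 4-coumaroyl group to shikimate, was led by Cluster-37204.2 at 163, 108 and 332 FPKM, and it rose by 1.68 from F2 to F3 (edgeR adjusted p = 1.24e-08). Cinnamoyl-CoA reductase was led by Cluster-28867.0 at 65.9, 94.9 and 32.6 FPKM. Cinnamyl alcohol dehydrogenase was led by Cluster-27531.0 at 120, 130 and 52.4 FPKM, and both clusters fell from F2 to F3. Summed over all their clusters, the reductase had 340, 254 and 99.7 FPKM and the dehydrogenase 729, 486 and 315. Both sums were thus already lower at F2 than at F1, unlike the leading clusters. The P450 C3'H, which hydroxylates the HCT product, fell from F1 to F2 in Cluster-35205.4 (312, 148 and 154 FPKM), and the P450 F5H of syringyl lignin fell from F2 to F3 in Cluster-53978.5 (14.8, 9.43 and 4.74 FPKM).

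On the flavonoid side, 25 clusters matched chalcone synthase, chalcone isomerase or flavanone 3-hydroxylase. The calls up and down were 6 and 5 between F1 and F2, 10 and 9 between F2 and F3, and 14 and 10 between F1 and F3. Read against the shares over all clusters (22% and 18.8%, 29.5% and 35.8%, 35% and 34.7%), the counts between F1 and F2 are about the background. The median log2 changes were 0.55, 0.27 and 2.16, against 0.17, -0.37 and 0.00 over all clusters. From F1 to F3, 11 of 15 chalcone isomerase clusters rose and 3 fell. The most abundant cluster of each enzyme was nevertheless among those that fell. Chalcone synthase, which joins 4-coumaroyl-CoA with malonyl-CoA, had 537, 761 and 287 FPKM in Cluster-45237.0, chalcone isomerase 376, 583 and 47.0 in Cluster-2798.13, and flavanone 3-hydroxylase 602, 557 and 155 in Cluster-54762.0. All 3 fell from F2 to F3 (edgeR adjusted p = 8.10e-08, 1.88e-10 and 7.57e-09) and from F1 to F3. Summed over all clusters of each enzyme, chalcone synthase had 1662, 1115 and 582 FPKM at F1, F2 and F3. The chalcone isomerase sum was 438, 640 and 338 FPKM and that of flavanone 3-hydroxylase 624, 583 and 181. The chalcone synthase sum was thus lower at F2 than at F1, and the isomerase sum dropped less at F3 than its leading cluster. Of 9 clusters for regulators of PAL and 4CL genes, 0 were called up and 4 down between F1 and F2, 3 and 3 between F2 and F3, and 1 and 2 between F1 and F3, beside the same background. The 4 that fell from F1 to F2 all matched HY5, a light-signalling factor, led by Cluster-56757.0 at 72.6, 32.4 and 60.5 FPKM, and the repressor MYB6 (Cluster-22091.0) had 36.2, 25.1 and 20.2 FPKM with no change called.

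**Figure D5:**
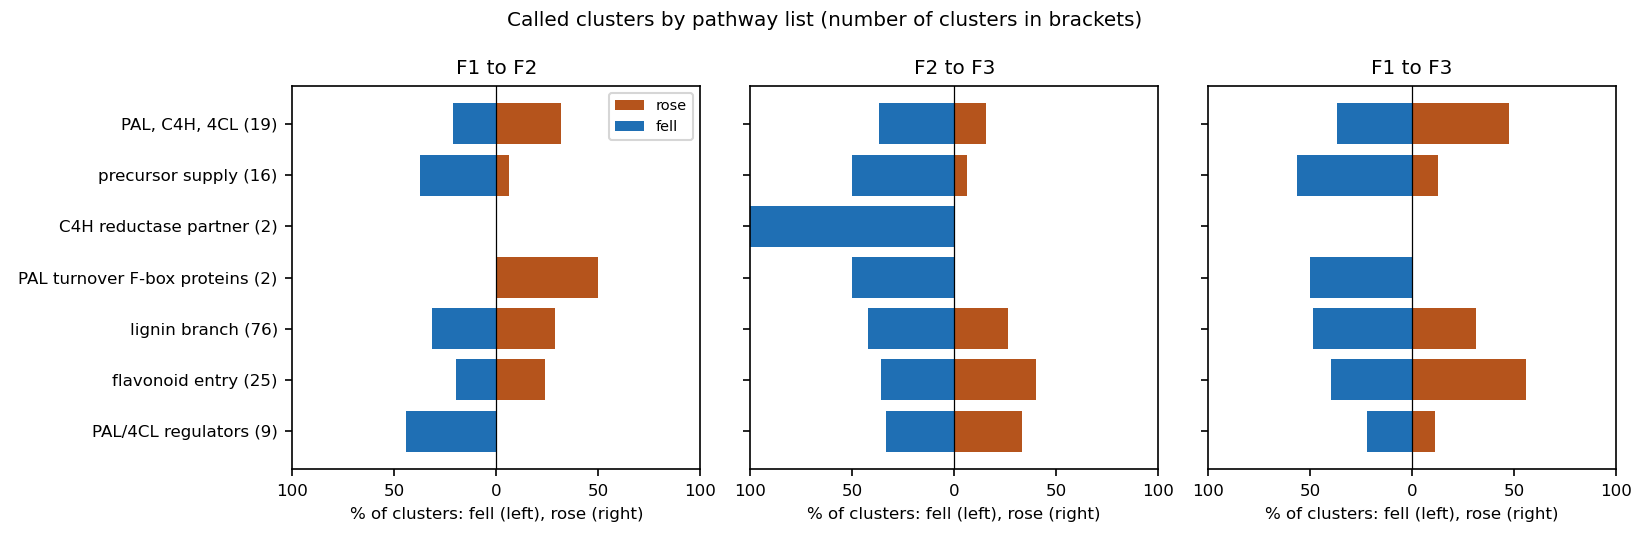
Percent of clusters that fell (left) or rose (right) in each comparison, for the 19 PAL, C4H and 4CL clusters and for the lists of pathway neighbours, with the number of clusters in brackets. From F1 to F3 precursor supply has 9 of 16 clusters falling and 2 rising, and PAL, C4H and 4CL have 7 falling and 9 rising, or 6 falling and 2 rising of 12 with clusters of one number summed. The lists were not tested against each other.

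Markers of other leaf cells moved with the stages too. Markers of xylem and secondary walls, where lignin is laid down, matched 30 clusters for 7 of 8 markers, with no match for CESA7. They summed to 206 to 229 FPKM at F1, 96.1 to 105 at F2 and 46.8 to 50.6 at F3. Between F1 and F3 25 of the 30 fell and 0 rose, against 34.7% falling and 35% rising over all clusters. Guard cell markers (3 of 5 found) summed to 28.7 to 33.3, 23.1 to 24.6 and 3.63 to 4.75 FPKM, and trichome and epidermis markers (3 of 4 found) to 16.6 to 21.8, 13.7 to 15.7 and 18.2 to 23.3. In the last list 4 of 6 clusters fell and 1 rose from F1 to F3, beside the same background and with only 6 clusters to count. The clusters matched to GLABRA went from 8.52 to 15.5 FPKM, while HDG (3.19 to 0.617) and ANTHOCYANINLESS (7.72 to 3.86) were lower at F3. The xylem and guard cell sums step down in the same order as Cluster-37089.0, Cluster-35388.0, Cluster-20163.0 and Cluster-39972.0. The part of cell makeup in these results was not tested.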

How the data were processed

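The authors deposited 1 table of transcript clusters with raw whole-number fragment counts per library. The authors also deposited FPKM, the counts scaled for cluster length and library size, and the deposited cluster length, in bases. Deposited log2 fold change, p-value and adjusted p columns of the authors' own comparisons were not used. For read mapping and counting, tools are not given in the sources here. The labels name the mouse builds GRCm38 and mm10 and kits other than those of the methods. FPKM was above 0 with a count of 0 in 117 of 219465 values, so whole counts may have been rounded.

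Counts of all 24385 clusters were fitted with edgeR 4.0.16 in R 4.3.3 (quasi-likelihood test, TMM scaling, 1 model of 9 libraries with stage as the factor, no filter). Calls needed a Benjamini-Hochberg adjusted p under 0.05 over all clusters and a fold change of at least 2. The deposited clusters are only those the authors had called on these same libraries. Adjusted p over them are thus likely too small, which bears most on those near 0.05. SE is that of the fitted log2 change. Counting intervals (95%, exact binomial) and the floor of 3 counts per library cover counting error only. The script was tested on simulated counts. Members, pathway lists and markers were chosen with earlier results of these data known. Some list names were trimmed after cluster names, not values, had been seen. Clusters averaging at least 10 FPKM in a stage, the most abundant cluster of each neighbouring enzyme and the 5 clusters most like the leading PAL, C4H and 4CL cluster were named. The leading cluster is the one with the highest mean over all libraries. Alternatives used DESeq2 1.42.0, RLE scaling, library sizes implied by FPKM, limma 3.58.1 on log2(FPKM + 1) and log2(FPKM + 0.1), clusters of at least 1 FPKM in a stage, 2 stages alone, a replicate block, no fold threshold, summed cluster numbers and each library left out.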

Additional observations from a re-analysis of the deposited data

How the results depend on the processing

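Of 246 alternative values for counts and sums, 223 stayed close to the reported one, within 1.5 times for a count and within 1 SD between libraries for a sum. Of 561 for single clusters, 545 kept their direction and side of the threshold, 0 reversed, 11 passed the threshold newly and 5 no longer passed it. The balance of calls from F1 to F2 turned within that tolerance, from 6 rising and 4 falling to 5 and 6 under DESeq2 and under RLE scaling. From F1 to F2 the 6 clusters that rose were 3 under limma on log2(FPKM + 1), and the 4 that fell were 7 with no fold threshold. From F2 to F3 the 3 that rose were 5 under DESeq2, RLE scaling, library sizes implied by FPKM and the 2 stages alone, 6 under limma on log2(FPKM + 0.1) and 7 with no fold threshold. That count ranged from 3 to 7 with 1 library left out, being 7 without F2 replicate 3 and 5 without F3 replicate 2. With cluster numbers summed to 12 features, 4 were called from F1 to F2 (2 rose, 2 fell) and 8 from F1 to F3 (2 rose, 6 fell). In that fit 6 PAL clusters became 1 feature, the number 9532 also summed other genes, and the single-cluster number 37089 had a log2 change of -0.97 from F1 to F2 and lost its call. Scaled counts without length gave PAL sums of 0.417 (F2 over F1), 1.08 (F3 over F2) and 0.451 (F3 over F1), C4H sums of 2.87 (F2 over F1) and 4.58 (F3 over F1) and a 4CL sum of 0.428 (F3 over F2). Without 4CL-like clusters the 4CL sum was 0.577 (F3 over F2) and 0.406 (F3 over F1). The replicate block gave the same member counts, 10 (6 rose, 4 fell), 10 (3 rose, 7 fell) and 16 (9 rose, 7 fell). Libraries of the same number had correlations of deviations from -0.02 to 0.03 over 9 pairs, 0 of them over 0.1. No shared deviation by number was thus seen, but a number could still mark a tree whose effect was small. At 1 to 3 counts in a stage, depth limits how well the size of a change is known. For Cluster-25961.6 the libraries also overlapped from F2 to F3, with 50, 50 and 0 against 0, 0 and 2 counts.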

Other observations

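One cluster with the C4H ortholog lies outside the name rule because its Swiss-Prot match is called Cytochrome P450 CYP73A100. Cluster-18614.0 had 0.17, 0.12 and 0.17 FPKM at F1, 1.24, 0.76 and 1.31 at F2 and 1.46, 2.02 and 1.72 at F3. Its levels at F3 were above all F1 and F2 libraries and small beside the 54.48 to 85.42 FPKM of Cluster-42964.0. CYP73A is the P450 family of C4H.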
